A study of Homo sapiens with 9 samples.

Results

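A549 cells that had received an siRNA against NRF2 were compared with A549 cells that had received the transfection reagent and no siRNA. The comparison rests on 6 of the 9 arrays of the series, the 3 titled Nrf2 siRNA and the 3 titled mock, chosen by their titles. A549 is an established human lung adenocarcinoma line, known to carry a defective KEAP1 gene and a high resting NRF2 activity. The siRNA was used at 25 nM with a cationic lipid reagent, and total RNA was taken 96 h after transfection in all groups. Each group held 3 biological replicates, each read on its own array. The remaining 3 arrays came from cells given 25 nM of a non-targeting siRNA (NS siRNA), and their level is given beside many of the results. Mock cells held no siRNA, so the loss of NRF2 and the presence of an siRNA as such cannot be told apart in this contrast alone. The samples used here hold a single Nrf2 siRNA group and no rescue, so an effect of NRF2 loss cannot be told apart from another effect of that siRNA. The arrays read bulk RNA, in which fewer cells of one kind and less RNA per cell cannot be told apart.

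NRF2, encoded by NFE2L2, is a transcription factor that pairs with small MAF proteins and binds antioxidant response elements in DNA. KEAP1, with the ubiquitin ligase CUL3, marks it for destruction until oxidants or electrophiles block that step. Its known targets make glutathione and NADPH, reduce quinones and aldehydes, degrade heme and pump conjugated toxins out of the cell.

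Levels are log2 values after RMA, a method that corrects, scales and summarises the probes of each array, and a log2 difference of 1 is a 2-fold difference. For each of 19775 genes the probe set with the highest mean was tested with limma, and a gene was called when its adjusted p was below 0.05. Where a count of probe sets follows a fold, the fold is that of the tested probe set and the count says how many were called in its direction. A fold without a count says nothing about the gene's other probe sets, which in some genes were not called. The array medians lay between 7.51 and 7.57, and the median standard deviation between replicates was 0.0687. The number of arrays limits the precision: an exact permutation test of 3 against 3 arrays cannot go below 0.1. Arrays correlated across probe sets at r = 0.9984 to 0.9987 within mock, 0.9979 to 0.9982 within Nrf2 siRNA and 0.9903 to 0.9913 between them. The 3' to 5' signal difference of ACTB, a measure of RNA integrity, averaged -0.085 in mock (-0.097 to -0.066) and -0.091 after Nrf2 siRNA (-0.144 to -0.064), so the ranges overlapped. No detection calls were used, so a level below the overall median of 7.54 has no background test and a fold from it may be understated.

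The keratin markers of the line stood far above the overall median: KRT18 averaged 14.9 in mock, KRT8 14.2 and KRT7 13.8. EPCAM and CDH1, also epithelial markers, lay nearer to the median, at 8.63 and 9.07 in mock. So did alveolar markers, with NKX2-1 at 7.6, NAPSA at 8.1 and SFTPC at 9.3, and none of these 3 was called. Among markers of other cells, 3 of 10 fibroblast genes (THY1, COL3A1 and LUM), 1 of 7 immune genes (CD14) and 1 of 8 endothelial genes (CDH5) were called higher, and none lower. Of all genes tested 16.4% were called higher, so the immune and endothelial counts do not exceed that share. CDH5 was not called without mock replicate 2 (log2 difference 0.17), Nrf2 siRNA replicate 1 (0.21) or Nrf2 siRNA replicate 3 (0.18). PTPRC, the pan-leukocyte gene, differed by 0.12 and the endothelial gene PECAM1 by -0.01, and neither passed the test. LUM and COL3A1 return below with the matrix genes; the part of other cell types in those values was not tested.

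The transcript that the siRNA targets fell in every replicate. NFE2L2 read 12.07, 11.92 and 11.98 in mock and 10.12, 10.32 and 10.30 after Nrf2 siRNA. The groups did not overlap, and 30.0% of the mock level was left (log2 difference -1.74 ± 0.06 SE, adjusted p = 6.07e-10). NS siRNA cells stood at 12.09 ± 0.06 (SD, n = 3). The gene's other probe sets were dimmer: one fell by 0.99 and the other, at 7.62 in mock, differed by -0.07 and was not called.

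Genes that work with NRF2 moved both ways. Of 14 measured relatives and regulators, 6 fell and 5 rose, although the count that rose was 3 without mock replicate 1 or 2 or Nrf2 siRNA replicate 1 or 2. SQSTM1, the autophagy receptor p62 that sequesters KEAP1, fell 2.02-fold, from 13.26, 13.23 and 13.23 to 12.17, 12.24 and 12.29. MAFG, a small MAF partner, fell by 0.73 and KEAP1 itself by 0.50. The competing repressor BACH1 rose by 0.31, the related factor NFE2L1 by 0.43 and the small MAF gene MAFF by 0.90. MAFF and BACH1 also stood above mock in NS siRNA cells, by 0.69 and 0.66, whereas SQSTM1 there was 0.39 above mock, on the other side of it from Nrf2 siRNA. NFE2L3 differed by -0.05 and was not called, although NS siRNA was 1.86 above mock.

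Across all genes, 6528 were called, 33.0% of those tested. Of these 3234 were higher after Nrf2 siRNA (16.4%) and 3294 lower (16.7%), and the median difference of all genes was -0.019. Counts within the gene lists are to be read beside these shares, and a count near them is not particular to its list. Most differences were small: the median fold of the called genes was 1.22, and 85.2% of them lay below 1.5-fold. At 2-fold or more, 203 genes rose (1.03%) and 82 fell (0.415%). In each of these 285 the 3 Nrf2 siRNA arrays lay wholly above or below the 3 mock arrays. With a median standard deviation between replicates of 0.0687, the size threshold all but fixes that separation, so it is no added support. The plot of level against difference shows the bright antioxidant enzymes at the lower right and the largest rises at the left, where levels are low.

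**Figure D1:**
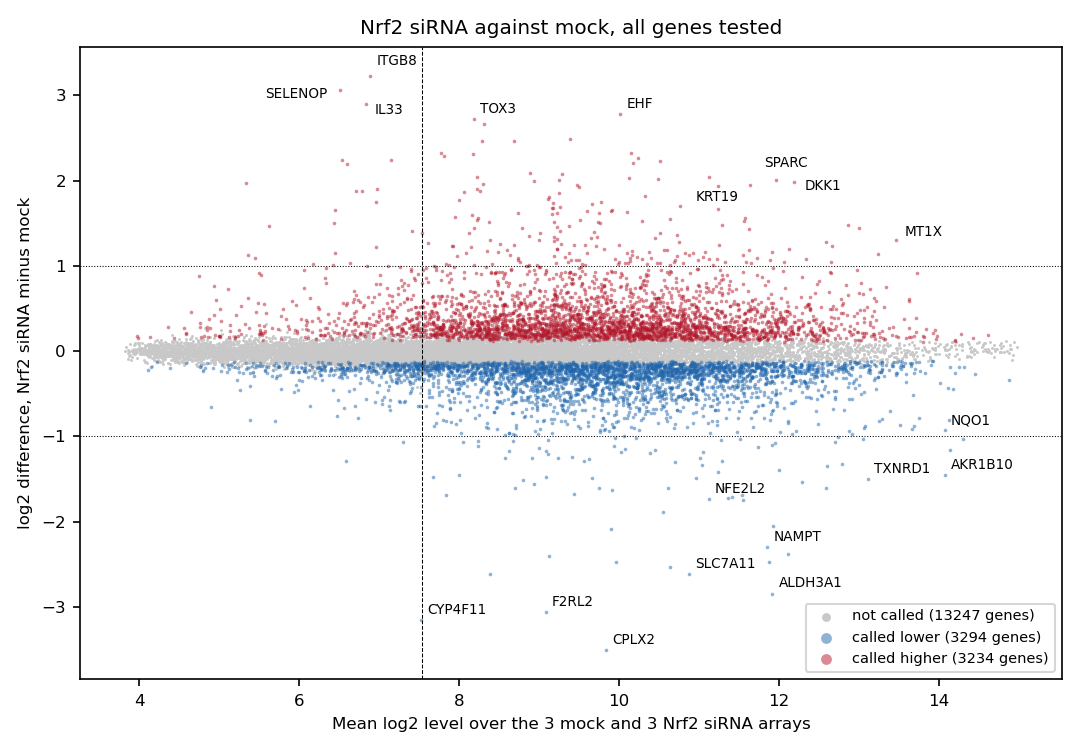
Log2 difference between Nrf2 siRNA and mock (vertical axis) against the mean log2 level over the 6 arrays (horizontal axis) for 19775 genes, coloured by limma call. Dotted lines mark 2-fold, the dashed line the overall median of 7.54; 203 called genes lie above the upper line and 82 below the lower.

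The 15 largest falls were led by CPLX2, which encodes complexin 2, a protein that binds the SNARE complex in regulated exocytosis. CPLX2 read 11.60, 11.67 and 11.51 in mock and 7.88, 8.12 and 8.25 after Nrf2 siRNA. The ranges lay far apart, and 8.78% of the mock level was left (adjusted p = 1.85e-11). The NS siRNA level of 10.67 ± 0.02 lay between the groups, 0.92 below mock. A second, dimmer CPLX2 probe set fell by 1.30.

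CYP4F11, a fatty acid hydroxylase of the cytochrome P450 family, read 9.23, 9.14 and 8.93 in mock and 5.75, 6.16 and 5.93 after Nrf2 siRNA. That leaves it below the array medians, so the 8.90-fold fall has a dim end. Its near relatives did not share a pattern: CYP4F3 fell 3.23-fold, while CYP4F2 (-0.18) and CYP4F12 (0.09) were not called. These genes are similar in sequence, and probes may not separate them fully. F2RL2, proteinase-activated receptor 3, went from 10.64, 10.58 and 10.61 to 7.48, 7.63 and 7.55, with NS siRNA at 10.34. NMRAL2P, a pseudogene transcript, read 9.67, 9.79 and 9.61 in mock and 7.14, 7.10 and 6.99 after Nrf2 siRNA. TM4SF20, a tetraspan membrane protein, fell 5.53-fold and CES1, a carboxylesterase that hydrolyses drugs and esters, 5.28-fold. Both were also below mock in NS siRNA cells, by 1.14 and 0.71.

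NAMPT, the rate-limiting enzyme of the NAD salvage pathway, read 12.98 to 13.03 on the mock arrays and 10.72, 10.65 and 10.74 after Nrf2 siRNA. It fell 4.93-fold, all 4 of its probe sets were called lower, and NS siRNA was 0.52 below mock. TRIM16, a ubiquitin ligase of the TRIM family, fell 5.19-fold from 13.30, 13.31 and 13.28 to 10.79, 11.02 and 10.95, with NS siRNA at 13.27. It was the single TRIM gene called lower among 18 measured, of which 10 rose; its partial copy TRIM16L differed by -0.06 and was not called, and without Nrf2 siRNA replicate 2 a second member was called lower. PSIP1, which encodes the chromatin-binding protein LEDGF, fell 4.25-fold with NS siRNA level with mock (0.01). Its probe sets disagreed: a pair fell (log2 differences -2.09 and -2.30), the third rose by 0.17 from a level of 5.16, and the fourth (0.05) was not called.

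**Figure D2:**
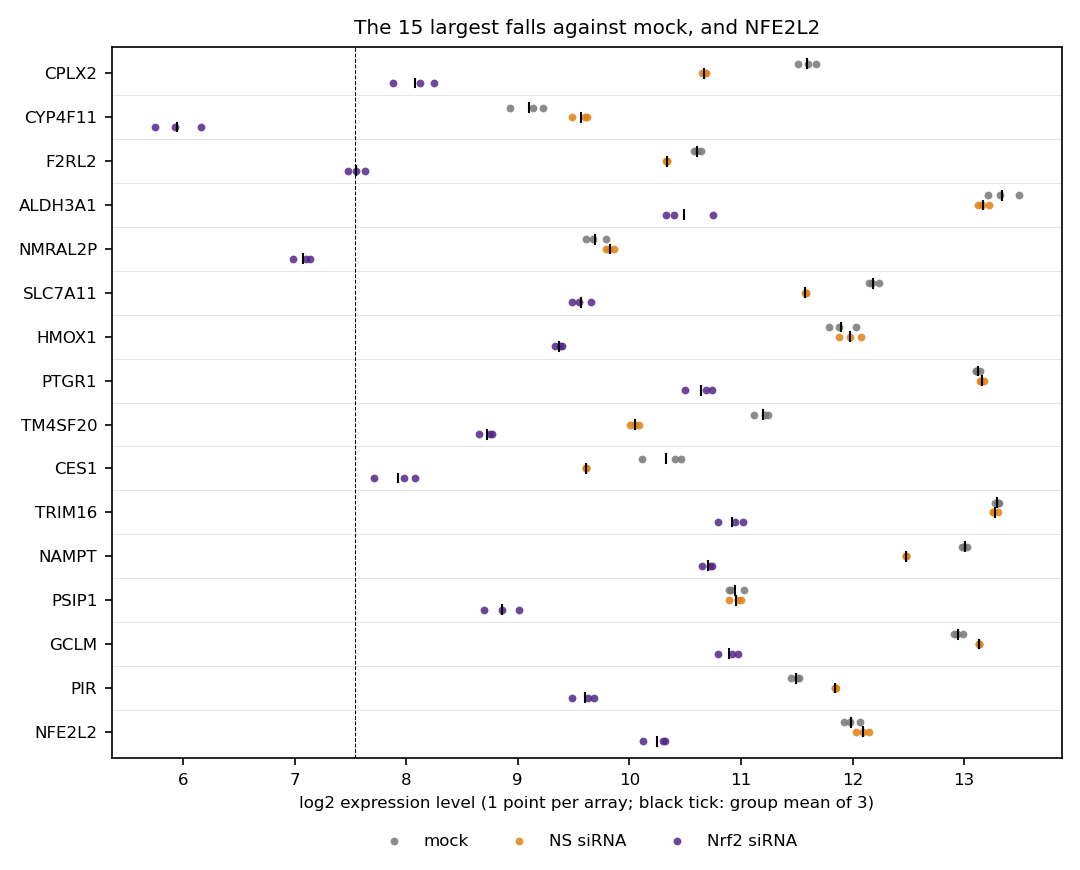
Log2 level on each array (horizontal axis) of the 15 genes with the largest falls against mock and of NFE2L2; each point is 1 array and each black tick the mean of 3. The purple Nrf2 siRNA points lie left of all mock and NS siRNA points in every row, and the dashed line is the overall median of 7.54. Separation from mock was part of the rule that chose the 15.

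Sequence around the start sites of falling genes was read from the RefSeq promoter table for GRCh38.p14, which covers 250 bases before to 50 after each start. The antioxidant response element core was searched as TGACNNNGC on both strands. Of 61 genes called lower at 2-fold or more that have a promoter in the table, 18 held it (29.5%), against 27 of 159 called higher at 2-fold or more (17.0%) and 2837 of 15384 genes tested (18.4%). Over the whole table of 27305 genes the share was 16.1%. The AP-1 motif TGANTCA overlaps it in letters and was held by 16.4%, 13.2% and 8.1% of the same first 3 sets. The 3 sets averaged 1.52, 1.56 and 1.40 promoters a gene, and a gene with more promoters has more chances of a match. The 6 matches below were picked by hand, as examples from genes that fell 2-fold or more and have the core wholly upstream of a start; other falling genes, such as GPX2, CBR1 and ABCB6, also have one. They are given 5′ to 3′ on the strand of the gene, with the core or its complement in capitals; a match is a description of the letters, not evidence of binding.
GCLM, chr1:93909436-93909484, core 34 bases before the start: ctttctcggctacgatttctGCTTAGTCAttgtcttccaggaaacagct
TXNRD1, chr12:104215660-104215708, core 99 bases before one start: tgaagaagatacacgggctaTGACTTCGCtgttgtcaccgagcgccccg
ME1, chr6:83431160-83431208, core 137 bases before the start: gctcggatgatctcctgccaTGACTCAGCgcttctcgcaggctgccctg
EPHX1, chr1:225825256-225825304, core 78 bases before one start: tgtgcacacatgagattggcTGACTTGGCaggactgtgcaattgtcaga
NAMPT, chr7:106285040-106285088, core 85 bases before the start: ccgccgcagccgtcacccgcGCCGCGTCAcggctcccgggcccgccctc
CYP4F11, chr19:15934995-15935043, core 156 bases before the start: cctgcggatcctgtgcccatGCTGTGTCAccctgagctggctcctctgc

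Glutathione, the main thiol of the cell, is built from cystine imported by SLC7A11 and joined by glutamate-cysteine ligase. SLC7A11 read 12.24, 12.17 and 12.15 in mock and 9.49, 9.55 and 9.66 after Nrf2 siRNA, a 6.13-fold fall (3 of 3 probe sets), with NS siRNA 0.61 below mock. GCLM, the modifier subunit of the ligase, fell 4.16-fold, from 12.99, 12.91 and 12.94 to 10.79, 10.97 and 10.92. The catalytic subunit GCLC fell by 1.72, while GSS, which adds glycine, fell by 0.23. Of 16 measured genes of this list 10 fell and 2 rose, with a median of -0.36. The 2 that rose were GPX1, a peroxidase (0.21), and CHAC1, which degrades glutathione (0.61); CHAC1 was 0.53 above mock in NS siRNA cells too.

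Peroxide-reducing proteins of the thioredoxin system gave 5 falls and no rise among 12 measured. SRXN1, which repairs overoxidised peroxiredoxins, fell 2.90-fold from 13.08, 13.07 and 13.03 to 11.53, 11.57 and 11.47. TXNRD1, the cytosolic thioredoxin reductase whose promoter is printed above, fell 2.84-fold from 13.91, 13.84 and 13.84 to 12.41, 12.26 and 12.41. The mitochondrial members did not pass the test, with TXNRD2 at -0.06, TXN2 at -0.02 and PRDX3 at -0.01. A second TXNRD1 probe set, dim at 4.50 in mock, differed by 0.04 and was not called.

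In the list of quinone, carbonyl and aldehyde enzymes 17 of 21 genes fell and 1 rose, with a median of -1.03. Beside reductases the list holds aldehyde dehydrogenases, which oxidise, and other genes such as EPHX1, PIR and NMRAL2P. PTGR1, which reduces the double bond of prostaglandin and lipid aldehydes, read 13.14, 13.11 and 13.11 in mock and 10.50, 10.69 and 10.74 after Nrf2 siRNA. ALDH3A1, which oxidises aldehydes, went from 13.49, 13.32 and 13.21 to 10.33, 10.40 and 10.75, with NS siRNA 0.17 below mock. EPHX1, an epoxide hydrolase, read 13.32, 13.23 and 13.25 in mock and 11.98, 11.82 and 11.96 after Nrf2 siRNA; NS siRNA was 0.97 below mock. In each of these genes the Nrf2 siRNA arrays lay below all mock arrays. PIR, an iron-binding nuclear protein, fell 3.71-fold, with NS siRNA 0.35 above mock. AKR1B10 fell by 1.46 and NQO1 by 0.93 from mock means of 14.8 and 14.5. AKR1C1 (-1.03), AKR1C2 (-1.17) and AKR1C3 (-0.81) are near-identical in sequence, so their values are uncertain singly. ALDH1A1 differed by -0.07 and was not called, nor were ADH7 and ALDH7A1. CBR4, a mitochondrial reductase, rose by 0.25, less than the 0.35 of NS siRNA over mock.

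NADPH, a reductant used by reductases of the preceding list, is made by the pentose phosphate pathway and by malic enzyme. ME1, cytosolic malic enzyme, read 12.48, 12.41 and 12.39 in mock and 10.57, 10.75 and 10.71 after Nrf2 siRNA, a 3.37-fold fall. TALDO1, transaldolase, fell 2.50-fold, from 13.46, 13.48 and 13.41 to 12.09, 12.24 and 12.05. PGD (-0.87) and TKT (-0.91) also fell, while IDH1 (-0.02) was not called. RPIA, ribose 5-phosphate isomerase, went the other way with 0.24, but NS siRNA exceeded mock by 0.78. The mitochondrial isoforms of malic enzyme differed little: ME2 fell by 0.14 and ME3 was not called (0.12).

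Heme and iron genes fell in 9 of 14 and rose in 2. HMOX1, the inducible heme oxygenase, read 11.88, 12.03 and 11.79 in mock and 9.40, 9.38 and 9.33 after Nrf2 siRNA. Falls were smaller for BLVRB, a biliverdin reductase (-0.79), for the heme synthesis genes ALAS1 (-0.70) and FECH (-0.62), and for the ferritin light chain FTL (-0.34). TFRC, the transferrin receptor, fell 1.92-fold. SLC40A1, the iron exporter ferroportin, rose 1.47-fold on 1 of 2 probe sets, from 10.59, 10.41 and 10.48 to 11.01, 11.06 and 11.09. It was still higher in NS siRNA cells (11.37). ABCB6, a heme-linked porphyrin transporter, fell 2.79-fold on 1 of 2 probe sets.

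Among 17 ABC transporters 6 fell and 6 rose, and the sizes were unequal. ABCG2, the multidrug exporter of stem-like cells, fell 2.80-fold, from 11.86, 11.66 and 11.60 to 10.12, 10.24 and 10.32, with NS siRNA at 11.72. The conjugate exporters ABCC2 (-1.03), ABCC1 (-0.97) and ABCC3 (-0.64) fell as well, the last with NS siRNA 0.76 below mock. Rises did not exceed 0.43, the value of the surfactant lipid transporter ABCA3. Conjugating enzymes fell in 9 of 18 and rose in 2: MGST1, a microsomal glutathione transferase, fell 1.72-fold (5 of 5 probe sets), and MGST2 rose 1.34-fold. Of 17 cytochrome P450 and AHR axis genes 7 rose and 4 fell, CYP4F11 and CYP4F3 among the latter; the counts were 6 and 6 with the replicate number as a block and 3 and 3 under a TREAT test against 1.2-fold. CYP3A5, a drug-oxidising P450, rose 3.98-fold, from 7.96, 7.97 and 7.89 to 10.08, 9.92 and 9.80, with NS siRNA at 8.04. AHR, the dioxin receptor, rose 1.87-fold, but NS siRNA cells exceeded mock by 1.04, more than the rise.

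Metallothioneins, small cysteine-rich proteins that bind zinc and copper, moved opposite to the glutathione genes. Of 13 genes of metal binding and zinc transport 7 rose and none fell. MT1X read 12.79, 12.81 and 12.84 in mock and 14.19, 14.13 and 14.02 after Nrf2 siRNA. The groups did not overlap, and NS siRNA stood at 12.65, below mock. MT1F rose 2.88-fold, MT1H by 1.23, MT2A by 0.91, MT1E by 0.69 and MT1G by 0.62, and the zinc exporter SLC30A1 by 0.34. MT1 transcripts are near-identical, so probes may read more than one of them. MTF1, the factor that drives these genes, differed by 0.06 and was not called.

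Of 20 selenium genes 6 fell and 3 rose, with a median of 0.01; 6 rose with a trended, robust variance. SELENOP, a secreted carrier of selenium, read 4.97, 4.90 and 5.08 in mock and 7.77, 8.20 and 8.16 after Nrf2 siRNA. Both mock and NS siRNA (5.35) lie below the array medians. One of its 3 probe sets carried the rise; the others differed by 0.04 and -0.03. SEPHS2, which makes the selenium donor, fell 1.65-fold, from 10.83, 10.80 and 10.78 to 9.97, 10.16 and 10.11.

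Serine, one-carbon and purine synthesis supplies nucleotides and formate. Here 14 of 19 measured genes fell and none rose, with a median of -0.24. SHMT2, the mitochondrial serine hydroxymethyltransferase, fell 2.05-fold, from 11.79, 11.82 and 11.78 to 10.73, 10.76 and 10.79, and NS siRNA (11.76) was level with mock. PFAS and PPAT, early steps of purine synthesis, fell by 0.56 and 0.53, and PSAT1 of serine synthesis by 0.35, while PHGDH (-0.07) was not called. Amino acid carriers fell in 7 of 18 and rose in 5. SLC7A5, the large neutral amino acid carrier, fell 1.77-fold, and SLC1A1, a glutamate carrier, rose 2.71-fold from 7.39, 7.58 and 7.42 to 8.86, 8.92 and 8.93, with NS siRNA 0.94 below mock.

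DNA replication genes fell in 26 of 29 and none rose, with a median of -0.41, yet no member reached 2-fold. MCM5, a subunit of the replicative helicase, read 10.73, 10.85 and 10.70 in mock and 9.99, 10.18 and 10.09 after Nrf2 siRNA, with NS siRNA at 10.77. GINS3 of the same helicase complex fell 1.64-fold, CDC45 by 0.63 and RRM2, the ribonucleotide reductase subunit, by 0.56. MCM3, PCNA and TYMS were not called (-0.13, -0.10 and 0.05). Mitotic genes fell in 12 of 27 with a median of -0.12; CCNA2 fell 1.48-fold (2 of 2 probe sets), while CDK1, TOP2A and BIRC5 were not called.

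Of 21 genes of G1 cyclins and CDK inhibitors 7 fell and 5 rose, with a median of -0.08. CCND3, cyclin D3, fell 2.14-fold, from 12.48, 12.53 and 12.37 to 11.34, 11.42 and 11.33, with NS siRNA at 12.69, on one of its 2 probe sets. MYC fell 1.59-fold and NS siRNA exceeded mock by 0.21. The CDK inhibitors CDKN1A (0.32) and CDKN1B (0.33) rose, and cyclin D1 (CCND1, -0.15) was not called. Of 21 measured p53 targets 16 rose and 2 fell, with medians of 0.30 against mock, 0.22 for NS siRNA against mock and 0.0 for Nrf2 siRNA against NS siRNA, and 1 fell without mock replicate 2 or 3 or Nrf2 siRNA replicate 1 or 3. FAS, a death receptor, rose 2.01-fold (5 of 5 probe sets) from 10.21, 10.11 and 10.07 to 11.24, 11.14 and 11.03. NS siRNA exceeded mock by 0.55 for FAS. For CDKN1A (0.44) and GDF15 (1.00) NS siRNA exceeded mock by more than Nrf2 siRNA did (0.32 and 0.72). GDF15 was called higher on 1 of its 3 probe sets. TP53INP1 rose by 0.77 (1 of 3 probe sets) with NS siRNA at 0.11 over mock.

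Regulators of cell death moved both ways, with 7 of 17 BCL2 family members lower and 5 higher. BCL2A1, an anti-apoptotic member, read 8.56, 8.79 and 8.82 in mock and at most 7.48 after Nrf2 siRNA (log2 difference -1.45), while NS siRNA was above mock at 10.39. BCL2L11, the pro-apoptotic BIM, fell 1.52-fold (7 of 7 probe sets). PMAIP1, the pro-apoptotic NOXA, rose 1.69-fold and BCL2L1, anti-apoptotic BCL-XL, 1.44-fold. The death ligand TNFSF10 (TRAIL) rose 4.74-fold, from 5.54, 5.30 and 5.40 to 7.47, 8.01 and 7.49, beginning below the array medians.

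Lists of protein quality control genes differed in the direction of most of their calls. Proteasome genes fell in 21 of 29 and none rose, with a median of -0.21, whereas NS siRNA against mock had a median of 0.21 over the same genes. PSMB5, the chymotrypsin-like catalytic subunit, fell 1.61-fold, from 13.19, 13.15 and 13.14 to 12.47, 12.48 and 12.46. Heat shock proteins and chaperones of the cytosol and mitochondria fell in 11 of 17 and none rose; HSPA4 fell 1.51-fold. Genes of the unfolded protein response of the endoplasmic reticulum rose in 12 of 20 and fell in 2, or in 1 when any of 6 single arrays was left out. ERN1, the stress sensor IRE1, rose 2.06-fold, from 8.83, 8.86 and 8.83 to 9.85, 9.82 and 10.00, on 1 of its 3 probe sets (NS siRNA 0.55 below mock), and DNAJB9, a co-chaperone, rose 1.68-fold on 3 of 3. The main chaperone HSPA5 (-0.06) was not called. The NS siRNA median of this list was -0.31 against mock.

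Mitochondrial ribosome genes fell in 18 of 24 and none rose (median -0.18, NS siRNA 0.22 against mock). MRPL15, the largest, fell 1.61-fold, from 12.32, 12.26 and 12.24 to 11.53, 11.61 and 11.62. Oxidative phosphorylation genes fell in 8 of 26, led by ATP5MC1 (1.51-fold). Cytosolic ribosome genes were nearly level: 1 of 16, RPS9 (0.21), was called. Aminoacyl-tRNA synthetases fell in 9 of 16, led by VARS1 (1.54-fold). PFKP, the platelet phosphofructokinase, fell 1.81-fold on 1 of 2 probe sets and the glucose carrier SLC2A1 1.66-fold on 2 of 2. The carrier SLC2A3 rose 1.58-fold on 3 of 3 probe sets. LDHA, PKM and GAPDH were not called.

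Cholesterol synthesis and uptake genes rose in 12 of 19 and none fell, with a median of 0.22 and an NS siRNA median of -0.02. TM7SF2, a sterol reductase, rose 1.95-fold, from 8.19, 8.24 and 8.06 to 9.19, 9.17 and 9.04, and INSIG2, an inhibitor of sterol regulatory protein processing, rose 1.79-fold. Fatty acid synthesis genes fell in 7 of 19, among them SCD (-0.44) and FASN (-0.43), and rose in 4, among them SCD5 (0.58) and ACSL4 (0.29); 2 rose without mock replicate 1 or 2. Of fatty acid oxidation genes 7 of 19 fell and 2 rose; the falls were led by ANGPTL4, a lipase inhibitor (1.95-fold), and CPT1A, the carnitine transferase (1.48-fold, 4 of 4 probe sets). PDK4, which blocks pyruvate oxidation, rose 2.04-fold from 11.24, 11.13 and 11.04 to 12.12, 12.23 and 12.13, while NS siRNA was 1.02 below mock.

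The largest rise belonged to ITGB8, the integrin subunit that pairs with the alpha V chain and activates latent TGF-beta. ITGB8 read 5.18, 5.33 and 5.31 in mock and 8.52, 8.61 and 8.37 after Nrf2 siRNA. NS siRNA lay between at 6.55 ± 0.05, 1.27 above mock. Of 5 ITGB8 probe sets, 2 rose (3.23 and 0.43) and the other three each differed by -0.01. Among 23 integrin genes 8 rose, or 5 without mock replicate 2 or Nrf2 siRNA replicate 3, and ITGAV was the one that fell (-0.19; -0.15 and not called without mock replicate 3). Leaving out mock replicate 2, NS siRNA replicate 1 or Nrf2 siRNA replicate 3 gave 2 falls, and Nrf2 siRNA replicate 1 gave 3. ITGB4 and ITGA6, the subunits of the hemidesmosome receptor for laminin, rose by 1.24 and 1.05, with NS siRNA at 0.01 and -0.24 against mock. ITGB1 (0.01), the common beta chain, was not called. Among the other large rises ANXA13, a membrane-binding annexin, went from 9.14, 8.97 and 8.85 to 11.35, 11.34 and 11.24, and TENT5A, a poly(A) polymerase, from 9.17, 9.14 and 9.01 to 11.29, 11.46 and 11.35. GDA, guanine deaminase, rose 4.89-fold from a mock mean of 6.67, below the overall median.

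**Figure D3:**
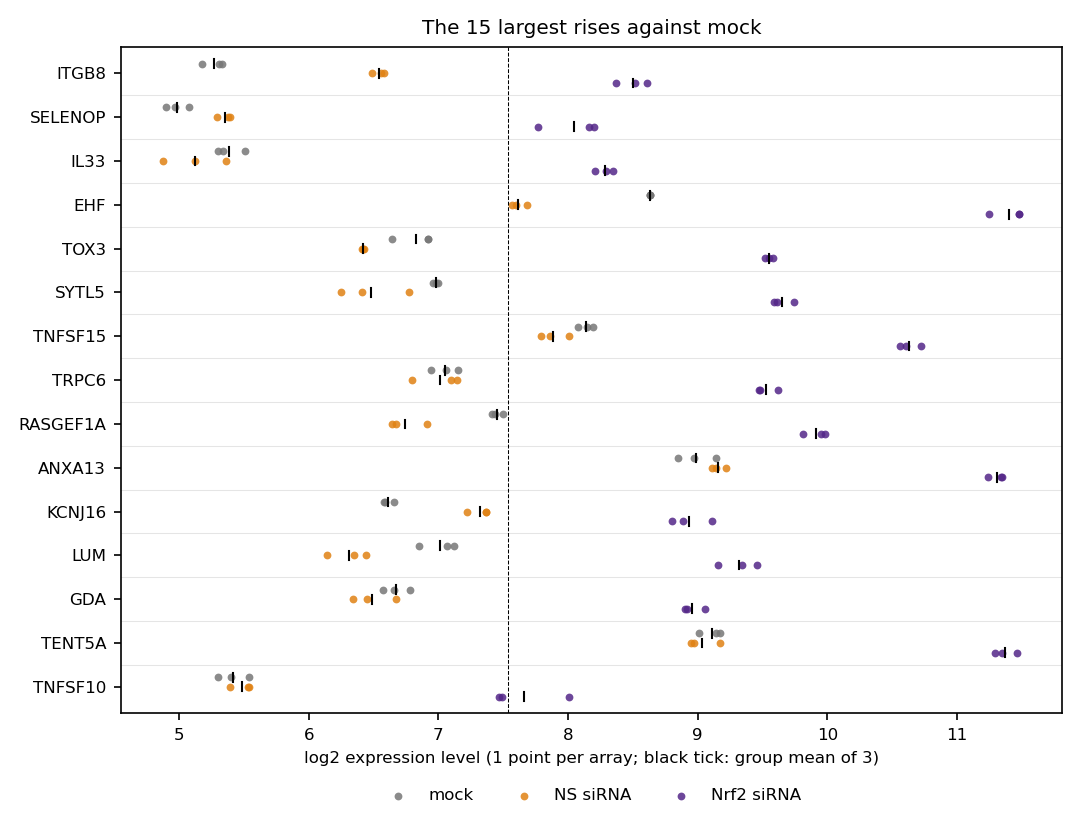
Log2 level on each array (horizontal axis) of the 15 genes with the largest rises against mock; each point is 1 array and each black tick the mean of 3. The Nrf2 siRNA points lie right of all others in every row, and 11 of the 15 mock means lie left of the dashed line at 7.54. Separation from mock was part of the rule that chose these genes.

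Epithelial transcription factors were among the rises. EHF, an ETS factor of epithelia, read 8.63 on all 3 mock arrays and 11.25, 11.48 and 11.48 after Nrf2 siRNA. That is a 6.86-fold rise on 6 of 6 probe sets. Such ties to 2 decimals recur, as for MYC in mock (12.39) and GCLM in NS siRNA (13.13). Their origin was not tested, so they are not read as close agreement of the cultures. NS siRNA was 1.01 below mock. ELF3, its close relative, rose 2.01-fold on 3 of 3 probe sets, and ETS1 and ETS2 fell by 0.31 and 0.30. NS siRNA was above mock by 0.54 for ELF3 and 0.89 for ETS1. SOX2, a factor of airway basal cells, rose 3.13-fold, from 9.16, 9.01 and 9.07 to 10.64, 10.80 and 10.73, and FOXA1 rose 1.82-fold. TOX3, an HMG-box factor, went from 6.92, 6.92 and 6.64 to 9.55, 9.58 and 9.52. Surfactant and secretory genes such as SFTPB, SFTPD and SCGB1A1 were not called.

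Of 14 keratin genes 7 rose, 1 (KRT7, -0.21) fell and 6 were not called. Epithelial junction genes rose in 13 of 24 and fell in 1, or in 2 without Nrf2 siRNA replicate 1; the median was 0.18 against mock and 0.0 against NS siRNA. EPCAM rose 2.29-fold, from 8.59, 8.64 and 8.64 to 9.68, 9.81 and 9.99, and CDH1, E-cadherin, 1.92-fold, with NS siRNA above mock by 0.72 and 0.46. CLDN2, a pore-forming claudin, rose 2.22-fold although NS siRNA was 0.47 below mock. KRT19 rose 3.87-fold, from 10.67, 10.71 and 10.60 to 12.53, 12.69 and 12.61, and NS siRNA was at 11.46. SNAI1, a repressor of E-cadherin, fell 2.85-fold, from 9.47, 9.55 and 9.62 to 8.09, 7.91 and 8.12, with NS siRNA between at 8.81. VIM rose by 0.15, CDH2 by 0.30 and CD44 by 0.67, and of 19 mesenchymal genes 3 fell and 7 rose. Mucin and CEACAM genes rose in 8 of 18: CEACAM1 by 1.74, AGR2 by 1.44 and AGR3 by 1.09.

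Secreted matrix genes gave large rises and 1 large fall. SPARC, a collagen-binding matricellular protein, read 10.77, 11.07 and 11.04 in mock and 12.90, 13.05 and 12.96 after Nrf2 siRNA, while NS siRNA was 1.05 below mock. LUM, the keratan sulfate proteoglycan lumican, rose 4.95-fold on 1 of 2 probe sets, from 6.85, 7.07 and 7.12 to 9.16, 9.46 and 9.34. For LUM, NS siRNA was 0.70 below mock. FBN1, fibrillin 1, rose by 1.72 and the proteoglycan VCAN by 1.08, the latter with NS siRNA 1.44 below mock. COL3A1 rose 1.99-fold, with NS siRNA 0.74 below mock, while COL1A1 (0.18) and COL1A2 (0.02) were not called. SPP1, the cytokine-like matrix protein osteopontin, fell 3.05-fold, from 13.44, 13.36 and 13.39 to 11.88, 11.76 and 11.72. Of 28 matrix genes other than collagens 13 rose and 5 fell. Of 23 genes in a separate list of collagens and collagen-modifying enzymes, COL3A1 among them, 8 rose and 4 fell. The enzymes LOXL2 and PLOD2 of that list fell 1.46-fold and 1.40-fold. For PLOD2 the NS siRNA level was 0.57 below mock, further than the -0.48 of Nrf2 siRNA.

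Proteases and their receptors moved alongside. No matrix metalloprotease or inhibitor among 22 fell and 9 rose, although 2 fell without mock replicate 1 and 1 when either NS siRNA replicate 2 or the first Nrf2 siRNA array was left out. MMP7, matrilysin, rose 4.68-fold, from 9.43, 9.47 and 9.28 to 11.55, 11.60 and 11.71, but NS siRNA alone exceeded mock by 1.72. MMP1 rose 2.75-fold from 4.80, 4.87 and 5.01, a level under the array medians. Coagulation and plasminogen genes rose in 12 of 21 and fell in 3. The fibrinogen chains FGB and FGG rose 2.84-fold and 2.58-fold and FGA by 0.42. PLAT, PLAUR and SERPINE2 rose by 0.92, 0.90 and 0.92, whereas F2R, the thrombin receptor, fell 1.42-fold (-0.50), less than the 0.58 by which NS siRNA was below mock. Complement genes split: C1S fell 3.27-fold, from 12.28, 12.29 and 12.23 to 10.59, 10.58 and 10.52, and C1R 1.72-fold, while the regulators CFI and CD55 rose 2.56-fold and 2.28-fold. NS siRNA was 0.81 below mock for C1S. For C1R it stood at 9.25 against a mock mean of 10.45, so Nrf2 siRNA, at 9.67, lay 0.42 above NS siRNA (limma, adjusted p = 7.67e-05).

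Feedback inhibitors and phosphatases of RAS and ERK signalling moved both ways. DUSP6, the ERK phosphatase, rose 3.53-fold, from 9.41, 9.45 and 9.37 to 11.20, 11.29 and 11.20, with NS siRNA at 9.75. SPRY2, SPRY1 and SPRY4, the sprouty inhibitors, rose by 1.60, 1.22 and 0.69, the first with NS siRNA 0.53 above mock. DUSP5, a nuclear ERK phosphatase, fell 2.38-fold, from 11.64, 11.70 and 11.57 to 10.33, 10.47 and 10.35, and the related DUSP1 fell by 0.48, with NS siRNA below mock by 0.45 and 0.67. RASGEF1A, a RAS exchange factor, rose 5.51-fold and DIRAS3, a RAS-like growth suppressor, 3.14-fold, both with NS siRNA below mock (by 0.71 and 1.16). EGFR rose 1.87-fold on 4 of 9 probe sets, from 10.17 on each mock array to 11.03, 11.08 and 11.10. Its ligands EREG and NRG1 fell 1.39-fold (1 of 2 probe sets) and 1.44-fold (5 of 6). NS siRNA lay on the other side of mock for all 3 of these genes, 1.05 below it for EGFR and 0.70 and 0.59 above it for EREG and NRG1.

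TGF-beta and BMP genes rose in 15 of 31 and fell in 7. TGFBR2, the type II receptor, rose 2.11-fold, from 11.82, 11.81 and 11.78 to 12.89, 12.88 and 12.87, and LTBP1, which tethers the latent ligand, rose 1.71-fold; NS siRNA was below mock by 0.85 and 0.52. The ligands TGFB1 (-0.30) and TGFB2 (-0.55) and the type I receptor TGFBR1 (-0.35) fell; NS siRNA was below mock by 1.49 for TGFB1 and by 1.43 for TGFBR1. DKK1, a secreted WNT inhibitor, rose 3.97-fold, from 11.26, 11.23 and 11.08 to 13.07, 13.19 and 13.28, with NS siRNA 0.66 above mock. NOTCH3 fell 2.96-fold on 1 of 2 probe sets, with NS siRNA 1.11 below mock. IGFBP1, a binding protein for insulin-like growth factors, rose 3.42-fold on 1 of 2 probe sets, from 7.34, 6.85 and 7.15 (NS siRNA 0.54 above mock). IRS1 and IRS2, insulin receptor substrates, rose 1.79-fold and fell 1.52-fold. NS siRNA was below mock for both, by 0.74 and 0.72, and for IRS2 this exceeded the -0.61 of Nrf2 siRNA.

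Of 26 cytokine and chemokine genes 8 rose and 4 fell, beside 16.4% and 16.7% of all genes. IL33, an alarmin of the IL-1 family, read 5.51, 5.34 and 5.30 in mock and 8.35, 8.29 and 8.21 after Nrf2 siRNA, with NS siRNA at 5.12. TNFSF15, a TNF family ligand, rose 5.61-fold from 8.19, 8.08 and 8.15. NFKBIZ, a nuclear cofactor of NF-kB, rose 4.05-fold, from 9.45, 9.56 and 9.42 to 11.52, 11.47 and 11.50, while NFKB2 and RELB fell 1.67-fold and 1.30-fold. The neutrophil chemokines CXCL1, CXCL2 and CXCL8 rose by 0.94, 0.69 and 0.76, the last with NS siRNA 0.79 above mock. IL6 fell by 0.20 from a level of 6.6, and TNF (-0.05) was not called. PTGS2, inducible cyclooxygenase, rose 2.93-fold, from 10.12, 9.81 and 9.66 to 11.49, 11.35 and 11.40, while NS siRNA (9.89) was level with mock.

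Antigen presentation genes rose in 11 of 18 and none fell, although 1 was called lower without Nrf2 siRNA replicate 3. HLA-DMA, a peptide loader of class II, rose 2.90-fold, from 8.73, 8.77 and 8.73 to 10.18, 10.25 and 10.41, with NS siRNA 0.58 below mock. HLA-E, HLA-C and HLA-B rose by 0.63, 0.35 and 0.24, values that are uncertain singly because class I genes are alike in sequence. NS siRNA was below mock for HLA-C and HLA-B by 0.72 and 0.54. Interferon-stimulated genes were called in 11 of 26, with 8 higher and 3 lower and a median of 0.07. OAS1 rose 1.55-fold while NS siRNA was 0.75 below mock; MX1 (0.19), ISG15 (0.05) and IFI6 (0.11) were not called.

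Of 27 exocytosis genes 12 rose and 4, CPLX2 among them, fell. SYTL5, a synaptotagmin-like RAB27 effector, rose 6.34-fold, from at least 6.96 in mock to 9.74, 9.59 and 9.61. RAB3B rose 2.03-fold (NS siRNA 0.69 above mock), VAMP8 by 0.93 and UNC13B by 0.92, while SNAP25 (-0.04) and CPLX3 (-0.10) were not called; NS siRNA was 1.31 below mock for SNAP25. RAB27A fell by 0.34 on the probe set used and differed by 0.06 on its most variable one. TRPC6, a calcium-permeable channel, rose 5.54-fold from 7.06, 7.15 and 6.94. KCNJ16, an inward rectifier, rose 4.99-fold on 1 of 2 probe sets, from 6.59, 6.66 and 6.58 (NS siRNA 0.71 above mock). KCNK1, a leak channel, rose 2.28-fold from 10.00, 9.94 and 9.97. Clock genes rose in 7 of 15, or 4 without mock replicate 2, and 1, BHLHE40 (-0.20, with NS siRNA 0.52 below mock), fell, with a list median of -0.02. PER2 rose 2.09-fold on 1 of 2 probe sets and NPAS2 1.94-fold on 5 of 5, while CLOCK (-0.10) and BMAL1 (-0.11) were not called. RNA interference genes, which the siRNA itself engages, were called in 4 of 14, a share below the 33.0% of all genes. Of these, TNRC6A (0.14) was not called without mock replicate 1 or 3 or Nrf2 siRNA replicate 2 or 3. AGO1 fell by 0.34 on 3 of 4 probe sets, with NS siRNA 0.12 below mock. AGO2 fell 1.19-fold, while NS siRNA was 0.39 above mock. DICER1 rose 1.22-fold (0.28) on 2 of 6 probe sets, and NS siRNA exceeded mock by 0.27. AGO2 was not called with an unmoderated test, nor AGO1, AGO2, DICER1 or TNRC6A under TREAT.

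**Figure D4:**
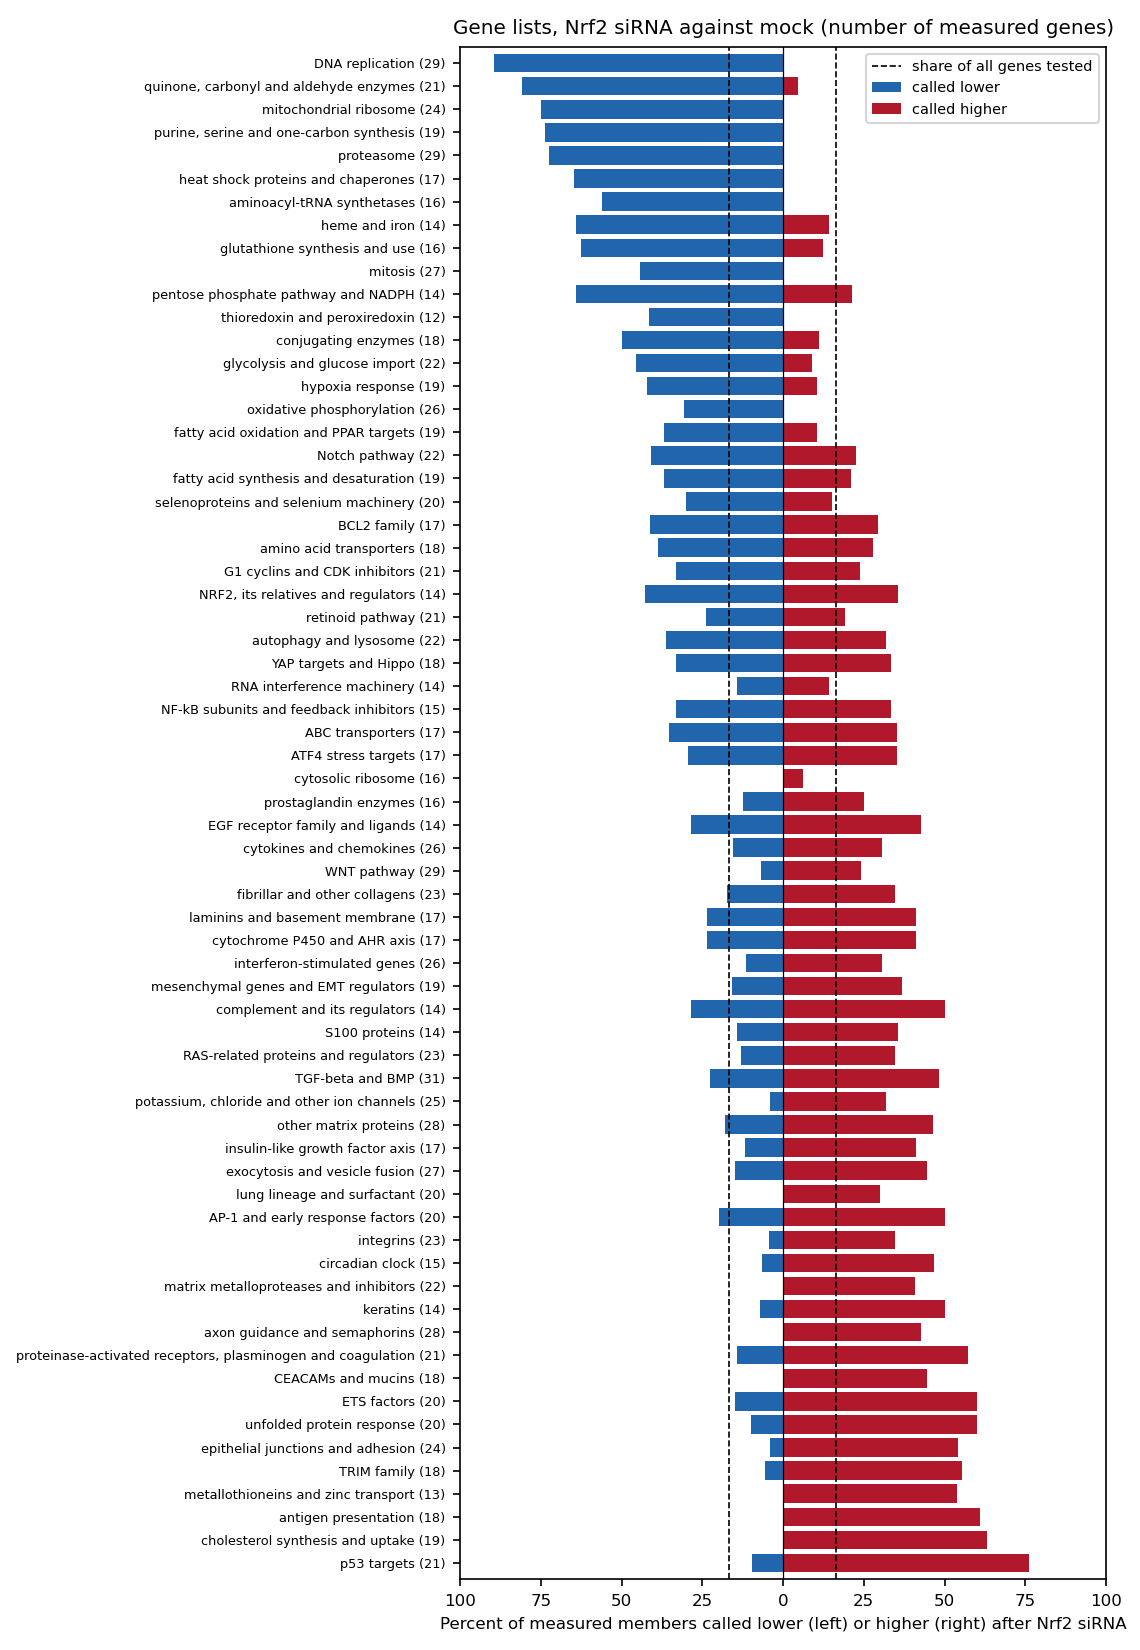
Percent of the measured members of each gene list called lower (left, blue) or higher (right, red) after Nrf2 siRNA against mock, ordered by the balance of the bars, with the number of measured genes in parentheses. Dashed lines mark the share of all genes, 16.7% lower and 16.4% higher; DNA replication and quinone, carbonyl and aldehyde enzymes reach furthest left, p53 targets and cholesterol synthesis furthest right.

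The mock contrast and the NS siRNA arrays did not always place a gene alike. Of the 234 genes named by rule, 23 differed by 2-fold or more between NS siRNA and mock, 9 with NS siRNA higher and 14 with it lower. CEACAM6, a cell surface adhesion molecule, read 9.25, 9.09 and 8.97 in mock and 11.10, 11.10 and 11.22 after Nrf2 siRNA, a 4.09-fold rise. NS siRNA cells stood higher still at 11.55, and Nrf2 siRNA was 0.42 below them. ALDH1A3, a retinal dehydrogenase, rose 2.45-fold against mock (1 of 2 probe sets) with NS siRNA at 1.48 above mock. TFF1, a trefoil peptide of mucosae, rose 4.13-fold with NS siRNA at 1.44 above mock. For TGFA, an EGFR ligand, the rise over mock was 0.93 (1 of 3 probe sets) and NS siRNA was 0.97 above mock. The siRNA groups thus differed by -0.03 for TGFA.

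Others lay on opposite sides of mock. SCD5, a stearoyl-CoA desaturase, rose by 0.58 after Nrf2 siRNA, from 9.18, 9.25 and 9.23 to 9.82, 9.84 and 9.77, while NS siRNA was at 6.54 (log2 difference from mock -2.68). WIPI1, an autophagy protein, rose 2.06-fold with NS siRNA 1.57 below mock, and PLAAT3, a phospholipase, 2.70-fold with NS siRNA also 1.57 below it. RARRES1, a retinoid-responsive gene, rose 3.82-fold, from 10.38, 10.27 and 10.16 to 12.06, 12.14 and 12.40, with NS siRNA at 8.87. Any pair of these contrasts shares a group of arrays, so these values stand side by side and no overlap between them is counted. Whether an siRNA as such moved the mock values apart from the Nrf2 siRNA values was not tested.

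**Figure D5:**
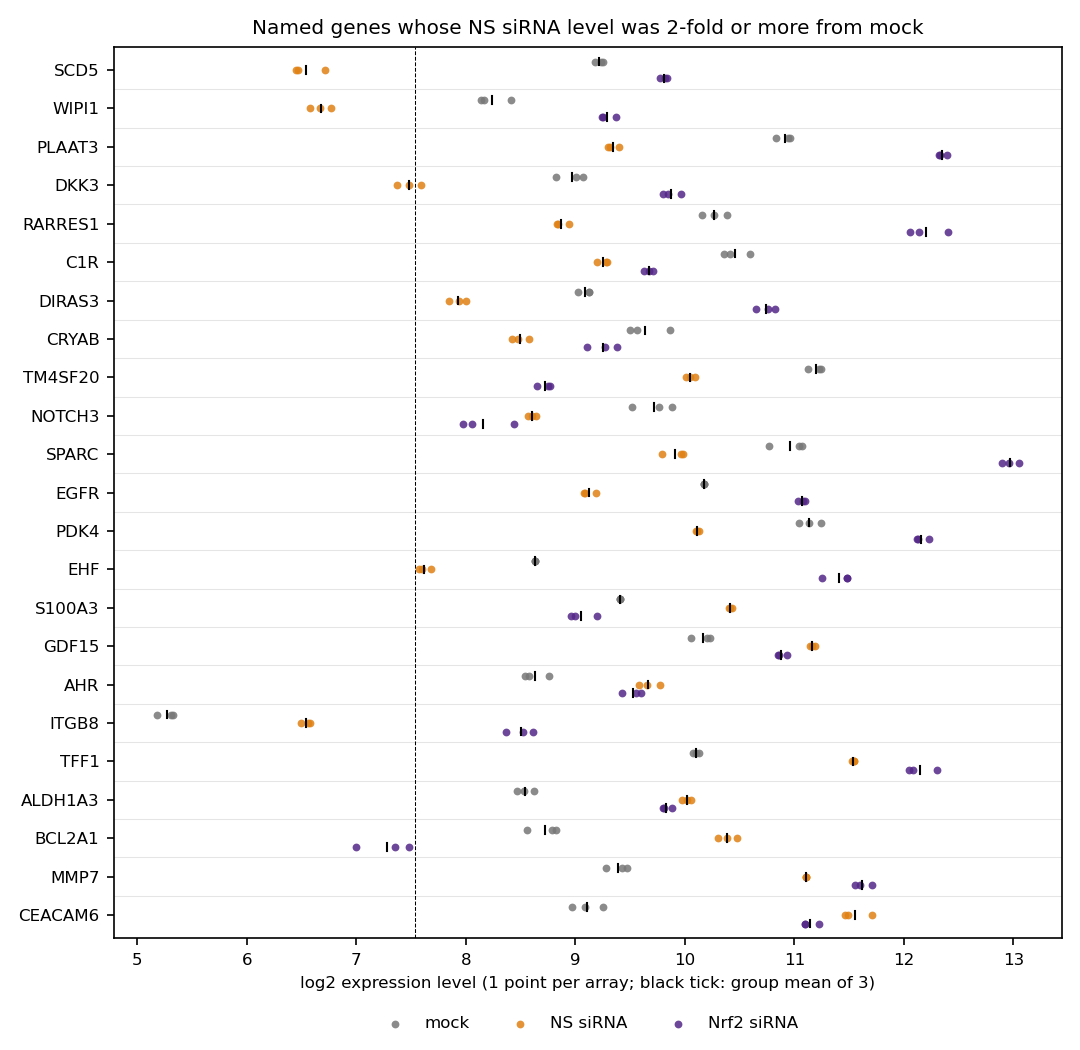
Log2 level on each array (horizontal axis) of the 23 named genes whose NS siRNA mean differed from mock by 2-fold or more, ordered from the lowest to the highest NS siRNA minus mock value; black ticks are means of 3 and the dashed line is 7.54. At the top NS siRNA lies left of mock, as for SCD5, and at the bottom right of it, as for CEACAM6.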

How the data were processed

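Total RNA from 9 cultures was read on Affymetrix arrays of 54675 probe sets. The deposited values are log2 levels; RMA is named in the submitters' processing notes, and its version and settings are not stated in the labels or table used here. Values ran from 3.60 to 15.06 and were not rescaled. The 62 control probe sets, 1801 with several genes and 11721 unnamed were left out. Of 41091 single-gene probe sets, 41037 were matched to RefSeq symbols and 54 kept the array's name; per gene the probe set with the highest mean over 9 arrays was kept (10523 genes had several).

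A limma model (version 3.58.1, R 4.3.3) of 3 group means was fitted to all 9 arrays, with 6 residual degrees of freedom. P-values are two-sided and Benjamini-Hochberg adjusted over 19775 genes, threshold 0.05. The labels call the replicates biological but name no separate passages or days, so the p-values measure the spread between these cultures.

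Members and lists (70 lists, 1348 of 1455 entries measured) were chosen with earlier results of these data known. Genes named by rule were NFE2L2, CPLX2 and ITGB8, and the 15 largest falls and rises whose arrays did not overlap. Per list, up to 2 called members each way were also named by rule. Other list members are named with their values or, for some, only by whether they were called. Lists are given as counts and medians, without a set test. On simulated arrays with 200 of 19775 genes changed between Nrf2 siRNA and mock, the fit recovered 100% at 2-fold and 93% at 1.41-fold, with 11 calls among unchanged genes.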

Additional observations from a re-analysis of the deposited data

How the results depend on the processing

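The number called stayed within 1.5 times 6528 in all settings run except TREAT and the fit to every probe set, and lay between 5579 and 6470 when single arrays were left out, with 283 to 294 at 2-fold or more. A TREAT test against a minimum fold of 1.2 called 1662 genes, 978 higher and 684 lower, and ended the calls of 53 of 233 genes named by rule, among them GPX1, CBR4, RPIA, CDKN1B, RPS9, RELB, ETS1, ETS2, ITGAV, KRT7, F2R, RAB27A, AGO2 and DICER1; an unmoderated test ended 9, AGO2 included. Every probe set on its own gave 11744 calls among 41091 (6265 higher, 5479 lower), with 546 at 2-fold or more (391 higher, 155 lower). Averaging the probe sets of each gene left 134 rises at 2-fold or more in place of 203. With the most variable probe set RAB27A (0.06) and TNRC6A (-0.15) changed sign. Quantile normalization called 3189 genes higher and 3783 lower.

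The replicate number as a block (replicate block) called 6804 genes, 3338 higher and 3466 lower; 6406 were shared. Same-numbered mock and Nrf2 siRNA arrays deviated from their group means with r = 0.115, 0.231 and 0.02. Different-numbered arrays gave -0.234, 0.154, -0.096, -0.169, -0.019 and -0.002. The same-numbered values were low but all positive, and whether the numbers mark a weak pairing was not tested.

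Signal over background limits dim genes: ITGB8, SELENOP and IL33 start below 7.54. The filter on dim genes gives them no value.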
